A study of Danio rerio with 30 samples.

Results

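The genes described here are those of DNA replication and cell division, chosen by their symbols among the 23232 spots of a zebrafish oligonucleotide array. After each symbol had been brought up to date through synonyms, a spot was taken when its symbol began with mcm, orc, ccna, ccnb, ccne, cdc, kif, cenp, ncap, rfc, rpa, top2, plk, aurk, bub or smc, or was pcna, ndc80, nuf2, chaf1a or gtse1. This gave 147 spots for 103 genes, out of 11724 spots with a symbol, and 34 of the genes had more than 1 spot. The prefixes also take genes that do not act in the cell cycle, such as the transport kinesins, the GTPase gene cdc42 with its effectors and the chaperone partner cdc37l1. These were kept and are counted apart from the 8 cell cycle roles, which hold 78 genes with a tested probe.

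Expression was profiled along the intestine of adult zebrafish, divided into 7 segments from rostral (S1) to caudal (S7). S1 and S2 form the rostral intestinal bulb, S3 and S4 the mid-intestine and S5 to S7 the caudal intestine. Each array held segment RNA in the dye Cy5, pooled from 10 wild-type male fish of about 1 year, and reference RNA of whole wild-type fish in Cy3, made from males and females at 9 to 1, so that testis and ovary are part of the reference. S1 to S4 have 5 arrays apiece, S5 has 4, and S6 and S7 have 3 each. No fish was treated and all shared the same wild-type background, and a pool holds the whole gut wall, not the epithelium alone. The labels give replicates as separate pools, and p-values measure the spread between these pools. Whole-fish RNA was the common reference on every array, always in Cy3. P-values against the whole fish therefore do not measure a spread between whole fish or between dyes. Each intestine was cut into all 7 segments, so pools of different segments can hold the same fish. The p-values treat all pools as independent.

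A cell that divides copies its DNA once and then separates the copies. The origin recognition complex (orc genes) and Cdc6 load the Mcm2-7 helicase on DNA before S phase, and the sliding clamp Pcna, the clamp loader Rfc and the single-strand binding protein Rpa work at the replication fork. Cyclins with their kinases, Plk1, the Aurora kinases, condensin, topoisomerase II, the kinetochore and mitotic kinesins then carry the cell through mitosis. In the zebrafish intestine, which has no crypts, dividing epithelial cells lie at the base of the folds and their progeny move up and are shed at the tips. In RNA of a whole gut wall, fewer dividing cells and less RNA per cell cannot be told apart.

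A value below is the log2 ratio of segment to whole fish, after background subtraction and loess within each array, which sets the typical probe of an array at about 0. A probe was tested when 3 or more arrays of a segment showed it brighter than the background, in either dye. Over S1 to S5, 138 member probes for 101 genes were tested out of 19362 probes, and 9 spots were not, among them all spots of cdca8 and ncapg2. In S1 to S5, 37.8% to 69.6% of spots were above background in Cy5 and 53.3% to 84.5% in Cy3. Precision is limited by the number of arrays, and no array had the dyes exchanged, so any dye preference of a probe remains in its ratio. Of the 24 arrays of S1 to S5, 7 were read over fewer pixels per spot (120, against 392 to 460), all of them from S1, S2 and S3. The 6 arrays of S6 and S7 (80 pixels) also differ in the reference. Across probes, the Cy3 signals of S6 and S7 arrays correlated with those of S1 to S5 at a mean r of 0.115, where S1 to S5 arrays reached 0.831 among themselves. Results are therefore given for S1 to S5, and S6 and S7 come last.

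The genes of replication and mitosis were lower in the intestine than in the whole fish in every segment from S1 to S5, while their level differed little along these segments. Against the whole fish, 62 of the 138 member probes were called lower (44.9%) and 3 higher (2.17%), at 2-fold or more and a Benjamini-Hochberg adjusted p under 0.05 from limma. Of all 19362 probes, 13.0% were called lower and 8.31% higher. The median log2 ratio was -0.81 over the members and 0.012 over all probes. In the 8 cell cycle roles, 58 of 108 probes were lower and 2 higher, with a median of -1.03. In the other 2 groups, transport kinesins and genes outside the cell cycle, 4 of 30 were lower and 1 higher.

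With 1 probe per gene, the brightest, 48 of 78 cell cycle genes were lower (61.5%) with a median of -1.44, against 17.0% and a median of -0.12 over 8731 genes. Of the 62 lower probes, 54 lay below 0 on all 24 arrays, and the largest adjusted p among the 62 was 1.74e-08 (limma). These 62 probes were chosen by the same values, so this describes them and is not a further test. For 46 of them the intestine's own signal in Cy5 was above background on at least 12 of the 24 arrays, so that the transcript was measured in the gut and not only missing there. For 6 it was above background on fewer than 6 arrays, and the size of their difference is less certain.

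**Figure D1:**
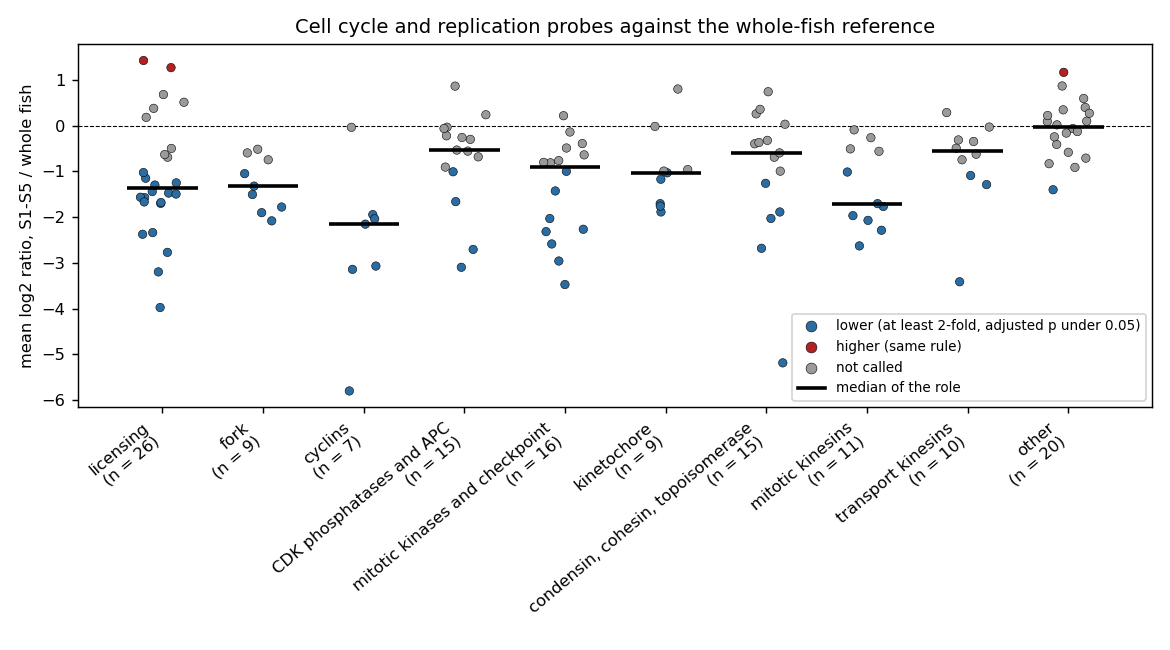
Mean log2 ratio of S1 to S5 over whole fish for each tested member probe, grouped by role, with blue for lower, red for higher, grey for not called and a bar at the median of each role. The medians of cyclins (-2.15), mitotic kinesins (-1.71), licensing (-1.37) and fork genes (-1.32) lie farthest below 0, and the group outside the cell cycle is centred on -0.024.

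Licensing genes, which prepare and start origins, had 26 tested probes, of which 17 were lower and 2 higher, with a median of -1.37. Mcm5, a subunit of the replicative helicase, had values of -1.95 at the lowest array, -1.53 at the median and -0.89 at the highest, all below 0. Its mean was -1.44 (standard error 0.056), 2.72-fold lower than in the whole fish (adjusted p = 6.20e-17, limma). Its partners in the helicase ring were lower by about the same amount, with means of -1.57 for mcm2 (probe 5448113), -1.47 for mcm4 and -1.50 for mcm7. Each of these probes was above background in Cy5 on at least 23 of 24 arrays. The other tested probe of mcm2 (5454791) had a mean of 0.51 and was not called. The remaining members of the ring, mcm3 and mcm6, were called higher. Mcm3 ranged from 0.16 to 2.62 with a median of 1.30, a mean of 1.27 and a 2.41-fold higher level (adjusted p = 6.69e-11), though its reference signal was above background on only 11 arrays. Mcm6 (probe 5464577) ranged from 0.12 to 1.96 with a median of 1.59 and was 2.68-fold higher (adjusted p = 1.08e-12), while its other tested probe had a mean of 0.38 and was not called.

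The like-named genes mcm3l and mcm6l were lower in the same arrays. Mcm3l had -4.88 at the lowest array, -3.95 at the median and -2.49 at the highest, and a mean 15.7-fold below the whole fish (adjusted p = 3.62e-19, limma), the lowest of the licensing genes. Mcm6l had a mean of -2.38. Cdca7a, a chromatin gene that responds to Myc and E2F in mammals, had -3.78, -3.23 and -2.34 for lowest, median and highest, and was 9.17-fold lower. Both tested probes of cdc45 (-2.34 and -1.70), which joins the helicase to the fork, and the loading factor gene mcm10 (-1.03) were lower.

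The origin recognition complex was uneven. The probes of orc6 (-2.77), orc1 (-1.57) and all 3 of orc3 (-1.68, -1.67 and -1.30) were lower, whereas orc5 had -0.50 and the 3 probes of orc4 had -0.69, -0.63 and 0.18, none of which reached 2-fold. Probe 5450421 of orc4 was above background in either dye on 7 of 24 arrays only. Cdc7, the kinase that fires origins, had a probe at -1.15 and called lower, and another at 0.68.

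At the fork, 6 of 9 probes were lower and none higher, with a median of -1.32. Pcna, the sliding clamp and a widely used mark of cells in S phase, had -2.16 at the lowest array, -1.28 at the median and -0.88 at the highest, and a mean of -1.32 (standard error 0.064), 2.50-fold lower (adjusted p = 3.42e-15, limma). On 3 of the 24 arrays neither dye was above background for it. All 3 subunits of the single-strand binding protein lay below 0, rpa3 at -2.08 and rpa1 at -1.51 as called genes and rpa2 at -0.75. Of the clamp loader, rfc2 (-1.78) and rfc3 (-1.05) were lower, and rfc4 (-0.60) and rfc5 (-0.52) did not reach 2-fold. Chaf1a, which loads histones behind the fork, had a mean of -1.90.

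Cyclins had the lowest median of the roles (-2.15), and 6 of 7 probes were lower. Ccnb1, the cyclin of entry into mitosis, had -7.13 at the lowest array, -5.92 at the median and -2.21 at the highest, which is S1 replicate 4. Its mean of -5.80 (standard error 0.20, adjusted p = 5.57e-18, limma) is the lowest of all members, 55.7-fold below the whole fish, and its Cy3 signal was saturated on 9 arrays, so that the ratio is a limit there. Ccna2, the cyclin of S phase and early mitosis, ranged from -3.91 to -2.16 with a median of -3.13 and was 8.39-fold lower. Ccna1 (-1.95), the cyclin A of germ cells in mammals, ccnb1l (-2.04) and ccne1 (-2.15), the cyclin that drives cells into S phase, were also lower. Ccne2 had -0.55, -0.03 and 0.25 for lowest, median and highest, close to the typical probe, and was not called. Ccnb2 had a mean of -3.14, with 6 arrays near 0 (S2 replicates 1 to 4, S4 replicate 5 and S5 replicate 1) on which neither dye was above background. Over the 18 arrays that measured it, ccnb2 lay between -5.68 and -2.46 with a mean of -4.20 (SD 0.87).

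The anaphase promoting complex ends mitosis by marking cyclins and securin for destruction. Its genes were grouped with the phosphatases and with the ubiquitin-conjugating enzyme genes cdc34a and cdc34b. The median of this role was -0.53, and 4 of 15 probes were lower. The activator cdc20 had -4.10, -3.10 and -1.46 for lowest, median and highest and was 8.55-fold lower, and the phosphatase cdc25b had a mean of -2.71. Core subunits of the complex lay near 0, with cdc23 at -0.30, cdc26 at -0.22 and the 3 probes of cdc27 between -0.26 and 0.86, none called. Cdc23 and cdc27 probe 5450604 were above background in either dye on all 24 arrays. Cdc26 was so on 9 arrays and the cdc27 probes 5449143 and 5464006 on 15 each, so their values near 0 are less certain. The other calls were the ubiquitin-conjugating enzyme genes cdc34a (-1.66) and 1 of the 5 probes of cdc34b (-1.01).

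Of the mitotic kinases and checkpoint genes, 8 of 16 probes were lower, with a median of -0.91. Plk1, the polo kinase of spindle assembly and mitotic exit, had -4.66 at the lowest array, -3.44 at the median and -2.15 at the highest, again in S1 replicate 4, and was 11.1-fold lower (adjusted p = 1.11e-18, limma), with a Cy5 signal above background on 5 arrays only. Aurkb, the kinase of the chromosomal passenger complex, was lower with both probes (-2.59 and -1.0), and the centrosomal kinase aurka had -0.64 and did not reach 2-fold. Gtse1, expressed in S and G2 phase in mammals, was lower with 1 of 3 probes (-2.03), the others lying at -0.81 and 0.22. The spindle checkpoint gene bub3 had -2.96 with probe 5456543, called lower, and -0.77 with probe 5455742.

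Kinetochore and centromere genes were lower in 5 of 9 probes (median -1.03). The motor gene cenpe had a mean of -1.89 and cenpl -1.71, and ndc80, which binds spindle microtubules, had -1.76 with probe 5447537 and -0.018 with probe 5458044. Its partner nuf2 had -1.71, -0.93 and -0.58 for lowest, median and highest, and its mean of -0.995 lay just short of 2-fold.

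Condensin, cohesin and topoisomerase genes had 15 probes, 5 of them lower, with a median of -0.60. The lower ones were condensin subunits, smc2 (-2.68 and -1.26), ncapg (-2.03) and ncapd2 (-1.89), and top2a, the topoisomerase II of dividing cells. Top2a had -6.21, -5.56 and -1.56 for lowest, median and highest with probe 5468213, a mean 36.4-fold below the whole fish (adjusted p = 7.79e-19, limma). Its other probe had a Cy5 signal above background on none of 24 arrays and gives no fold. Other condensin probes lay nearer 0, smc4 at -0.996 and 0.26 and ncapd3 at -0.69 and -0.32, though smc4 probe 5448446 was above background in either dye on 10 arrays only. The cohesin genes smc3 (-0.60) and smc1al (-0.40) lay within the range of these condensin probes. Top2b, the other topoisomerase II gene, had a mean of 0.74. None of these was called.

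Mitotic kinesins, motors of the spindle and of the midbody, were lower in 7 of 11 probes (median -1.71). Kif11, which pushes the spindle poles apart, had -3.58, -2.22 and -1.17 for lowest, median and highest and was 4.88-fold lower, and kif23, which bundles microtubules at the midbody, was lower with both probes (-2.63 and -2.07). Kif20a, of the same structure, had a mean of -1.02. Among the genes of transport and cilia, 3 of 10 probes were lower, with the kinesin-binding protein gene kifbp at -3.41 by 1 probe and -0.032 by the other. In the group outside the cell cycle 18 of 20 probes were not called, cdc5l, a splicing factor gene, was lower (-1.40) and cdc42l was 2.24-fold higher.

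**Figure D2:**
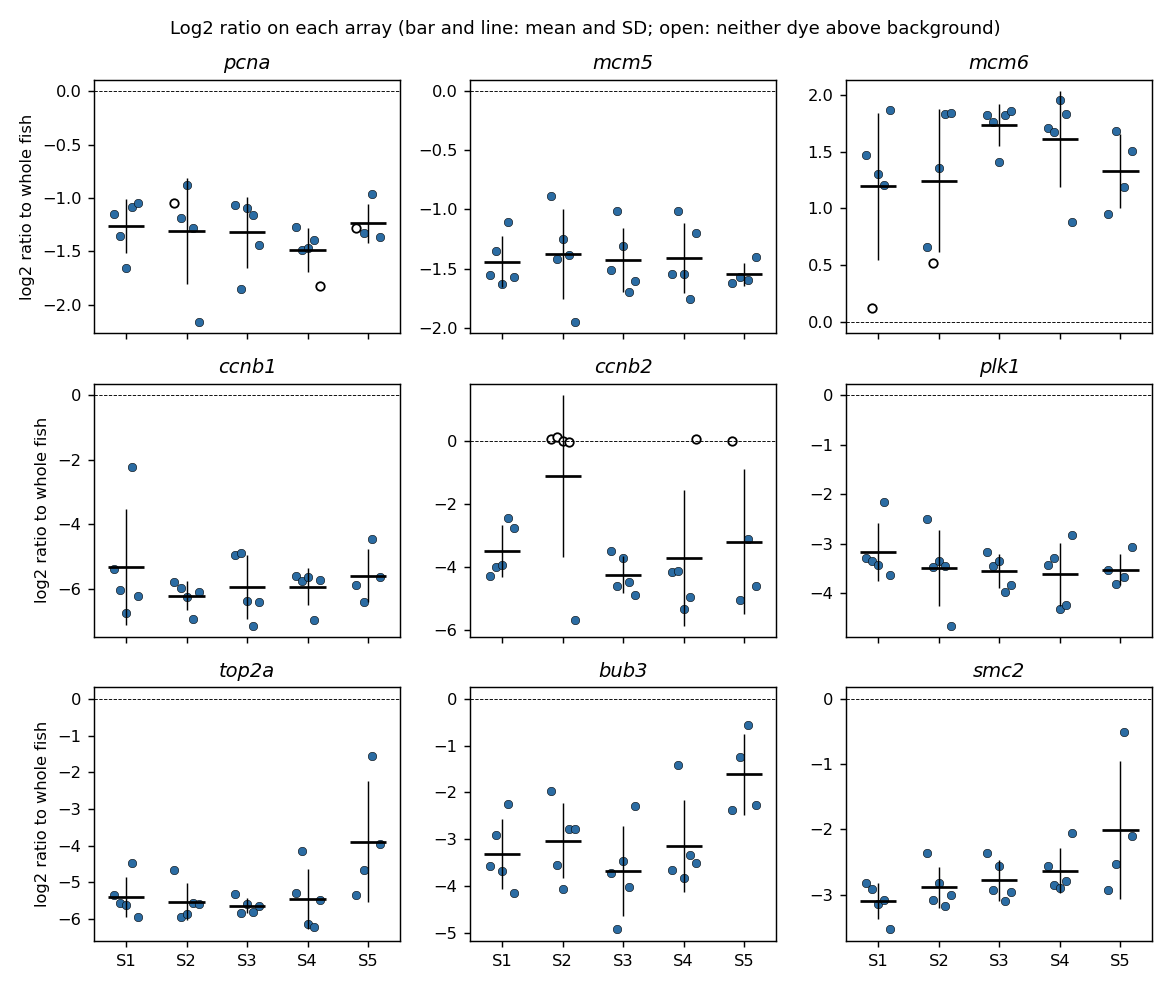
Log2 ratio to whole fish on each of the 24 arrays of S1 to S5 for pcna, mcm5, mcm6, ccnb1, ccnb2, plk1, top2a, bub3 and smc2 (of several probes the one farthest from 0), with bars and lines for segment means and SD and open circles where neither dye was above background. Pcna and mcm5, with means of -1.32 and -1.44, lie below 0 on all 24 arrays. Ccnb2 falls into measured arrays and 6 arrays near 0, and top2a on S5 replicate 3 (-1.56) stands above all other arrays.

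Probes of the same gene did not always give the same ratio. Of 30 genes with more than 1 tested probe, 18 had the same call with each probe and 12 did not, and in 14 the probes differed by more than 1 on the log2 scale. No gene had a probe called lower and another called higher. The widest gap was that of top2a (5.21), whose other probe was above background in Cy5 on none of the 24 arrays, followed by kifbp (3.38), gtse1 (2.25), bub3 (2.19) and mcm2 (2.08, with probe 5454791 at 0.51). Symbols are those of the array's annotation, and which probe follows its gene was not tested.

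Genes of the same processes outside the symbol prefixes were mostly lower too, where 17.0% of all genes were. Of 25 tested genes of S-phase enzymes, 20 were lower and none higher, with a median of -1.73. The lowest were rrm2 (-4.47) and rrm1 (-2.60), the subunits of ribonucleotide reductase that makes deoxynucleotides, nasp (-4.00), a histone chaperone gene, and gmnn (-3.06), the brake on repeated licensing. Of 35 further genes of mitosis, 24 were lower and none higher, with a median of -1.47, led by the spindle genes tacc3 (-3.36), prc1a (-3.14) and nek2 (-2.91) and by the microtubule-destabilizing stmn1a (-2.84). Mki67, the gene of the Ki-67 antigen, had -2.37, and cdk1, the kinase partner of cyclin B, had -1.48.

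Regulators of G1 and inhibitors of the cyclin-dependent kinases lay on both sides of 0, with 6 of 31 genes lower, 3 higher and a median of -0.26. These shares are near those of all genes, of which 17.0% were lower and 8.22% higher. The antiproliferative gene btg2 (-2.73), ccnh (-2.40), the cyclin of the kinase that activates other cyclin-dependent kinases, and lin9 (-2.07) were lower. The growth arrest gene gadd45aa (2.16), the transcription factor gene e2f3 (1.81) and ccnd1 (1.16), the cyclin D of early G1, were higher.

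The tissue identity of the pools was clear, since 10 of 11 enterocyte genes were higher than in the whole fish, such as apoa4a (3.86), mttp (3.03), slc15a1b (2.64) and vil1 (2.51), and alpi.1 (-0.20) was not called. Of 10 oocyte genes 8 were also lower (median -3.69, with zp3b at -5.52, zp3 at -4.63, zar1 at -4.60 and buc at -4.37). Of 19 genes of germ cells and testis 7 were lower and sycp3 (2.05) was higher (median -0.74, with ropn1l at -5.32, dazl at -3.58, cyp17a1 at -2.73 and dnd1 at -2.49). Per array, the median of the oocyte list lay between -4.72 and -1.57. The part of germ cell RNA in the reference in the lower ratios of cell cycle genes was not tested.

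**Figure D3:**
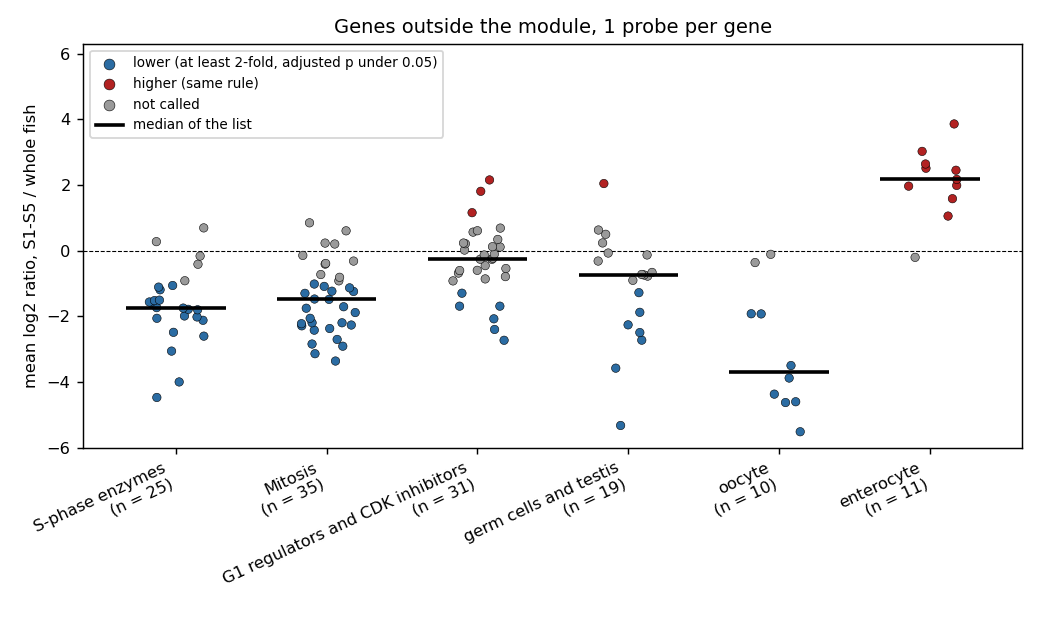
Mean log2 ratio of S1 to S5 over whole fish for genes outside the symbol rule, 1 probe per gene, in 6 lists, with blue for lower, red for higher, grey for not called and a bar at the median. S-phase enzymes (median -1.73), mitosis genes (-1.47) and oocyte genes (-3.69) lie mostly below 0, G1 regulators are spread around -0.26 and enterocyte genes lie mostly above 0 (2.17).

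Along S1 to S5 the cell cycle genes differed little. In S1 the median over the 108 cell cycle probes was -1.10 ± 0.086 (SD, n = 5 arrays). It was -0.95 ± 0.28 (n = 5) for S2, and S3 and S4 gave -1.04 ± 0.18 and -1.08 ± 0.22 (n = 5 each). S5 had the lowest mean, -1.20 ± 0.12 (n = 4). The arrays of all segments overlapped, and the range over single arrays was -1.37 to -0.59. The median distance between the highest and lowest segment mean of a probe was 0.40 for members and 0.37 for all probes.

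Pcna showed no called difference between the segments. Its values were -1.15, -1.36, -1.66, -1.09 and -1.05 in S1, -1.04, -1.19, -0.88, -1.28 and -2.16 in S2, and -1.07, -1.85, -1.09, -1.15 and -1.44 in S3. They were -1.27, -1.49, -1.46, -1.39 and -1.82 in S4 and -1.28, -1.33, -0.97 and -1.37 in S5. Segments overlapped throughout, and limma's F test over the 5 segments gave an adjusted p of 0.88, which does not show that their levels are equal. The members whose values followed pcna most closely over the 24 arrays were cdc42 (Pearson r 0.59), orc3 (probe 5462918, 0.55), cdca7a (0.54), aurka (0.54) and ccna2 (0.52). These r values are descriptions over arrays that share depth and normalization.

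**Figure D4:**
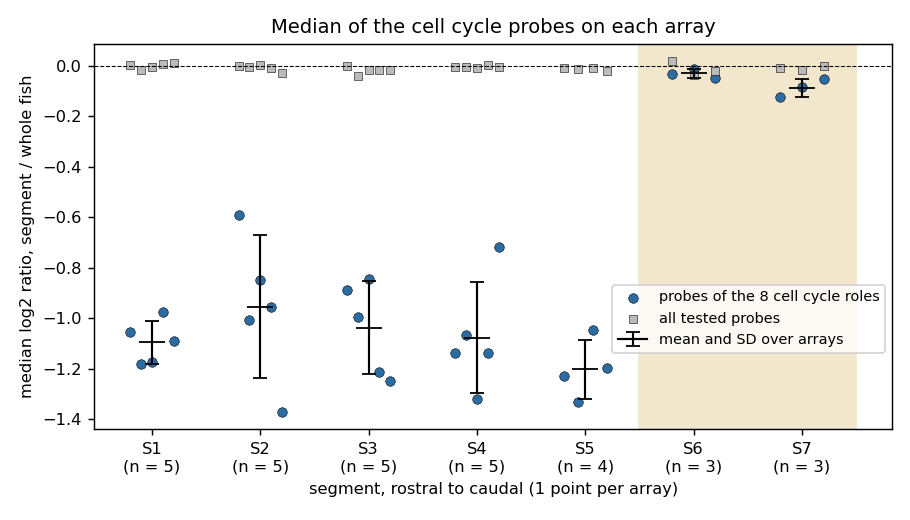
Median log2 ratio to whole fish on each of the 30 arrays, for the cell cycle probes and for all probes tested. In S1 to S5 the cell cycle median lies between -1.37 and -0.59 on every array while that of all probes stays between -0.041 and 0.011, and on the S6 and S7 arrays the cell cycle median lies between -0.12 and -0.011.

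By the F test over S1 to S5 in limma, 5 of 138 member probes differed between segments (3.62%), against 6.17% of all probes, and 27 members (19.6%) had an unadjusted p under 0.05, against 19.1% of all. Of the 5, only ndc80 (probe 5458044) belongs to the cell cycle roles. The others were both probes of cdc42bpb, a kinase gene that acts on the actin cytoskeleton, cdc37l1 and kifap3b, an adaptor of a transport kinesin. For the trend from S1 to S5, 3 members rose (2.17%, against 3.29% of all probes) and 6 fell (4.35%, against 3.46%). The shares of members called are near the background or below it.

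The trends were small and lay mostly outside replication. Kifap3b (probe 5447828) had 0.18, 0.35, 0.32, 0.14 and -0.21 in S1 and -1.49, -0.89, -0.19 and -0.58 in S5, which overlap only at the lowest S1 array. Neither dye was above background for it on 6 arrays, among them S5 replicate 1, which has the lowest value (-1.49), and 4 of the 5 arrays of S3, so that with unmeasured spots left out it could not be fitted. With all arrays it fell by 0.21 on the log2 scale per segment (standard error 0.041, adjusted p = 0.00185, limma). The other tested probe of kifap3b (5450608) had no called trend. The probes of cdc42bpb fell by 0.20 and 0.16 per segment. For probe 5464364 the S1 values of 0.79, 0.78, 0.54, 0.70 and 0.77 all lay above those of S5 (0.02, 0.20, -0.08 and -0.52). Kif7 fell by 0.12 per segment, rpap2 (probe 5455987) by 0.11 and cdc37l1 rose by 0.10. Segment means of kif7 were -1.02, -0.82, -1.06, -1.06 and -1.49 from S1 to S5. Those of rpap2 were -0.55, -0.66, -0.61, -0.66 and -1.08, so that in both the fall lay mainly at S5. The other tested probe of rpap2 (5459644) had no called trend.

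Among these calls were 3 cell cycle genes. Smc4 (probe 5461374), the partner of Smc2 in condensin, had -0.79, -0.82, -0.73, -0.63 and -1.33 in S1 and -1.48, -1.64, -1.20 and -1.40 in S5, with 1 S1 array inside the S5 range, and fell by 0.12 per segment (adjusted p = 0.0448, limma). Its segment means were -0.86, -0.86, -0.91 and -0.92 in S1 to S4 and -1.43 in S5, so the fall lay mainly at S5. Kif2a (probe 5461804), a microtubule-depolymerizing kinesin, rose by 0.095 per segment (adjusted p = 0.0216, limma). This probe was above background in either dye on 16 of 24 arrays. The other tested probe of kif2a (5453365), measured on all 24, had no called trend. Smc2 (probe 5461301) had -2.82, -2.91, -3.14, -3.08 and -3.53 in S1 and -2.92, -2.53, -0.51 and -2.10 in S5, and rose by 0.24 per segment (adjusted p = 0.0403). The other tested probes of smc2 (5454371) and smc4 (5448446) had no called trend. The trends of the called probes of this condensin pair ran in opposite directions. That of smc2 leaned on S5 replicate 3, without which it was 0.14 (adjusted p = 0.105, limma). Without the same array kif2a rose by 0.087 (adjusted p = 0.0563, limma). With the pixel class as a block, an alternative added after the data were seen, no rising trend of a member was called, at 0.18 for smc2 (adjusted p = 0.254), 0.072 for kif2a (0.181) and 0.12 for cdc37l1 (0.0517), and of the falling ones kif7, rpap2 and probe 5468936 of cdc42bpb were not called. The calls of smc4, kif7 and rpap2 were each lost in 18 of the 24 fits that left out 1 array.

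Between the mid-intestine and the rostral bulb, 3 members rose (2.17%, against 1.09% of all probes) and none fell (0.986% of all probes). In either direction, 12 members had an unadjusted p under 0.05 in limma (8.70%, against 12.9% of all probes), 5 of them lower. Ndc80 (probe 5458044) had -0.11, -0.18, -0.06, -0.07 and -0.19 in S1 and -0.10, -0.25, -0.16, -0.28 and -0.38 in S2. In S3 it had 0.05, 0.18, 0.01, 0.17 and 0.09 and in S4 0.06, 0.28, 0.15, 0.16 and 0.27. The groups did not overlap, and the rise was 0.32 (standard error 0.067, adjusted p = 0.00981, limma), or 1.25-fold, on the probe of ndc80 that did not differ from the whole fish. Cdc37l1 lay between -0.70 and 0.09 in the bulb and between -0.14 and 0.29 in the mid-intestine, and rose by 0.39 (adjusted p = 0.0216). Kif2a (probe 5461804) lay between -0.53 and -0.12 in the bulb and between -0.26 and 0.16 in the mid-intestine, and rose by 0.29 (adjusted p = 0.0473), a call lost in 18 of 24 fits that left out 1 array. For cdc37l1 and for kif2a the arrays of bulb and mid-intestine overlapped. Probe 5461804 of kif2a was above background in either dye on 16 of 24 arrays. The other tested probe of kif2a (5453365), measured on all 24, was not called. With the pixel class as a block cdc37l1 was called and ndc80 (0.31, adjusted p = 0.0589, limma) and kif2a (0.21, adjusted p = 0.255) were not.

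Over the same step 9 of 12 exocrine pancreas genes rose and 6 of 12 liver genes fell, and all 12 pancreas genes rose along S1 to S5. The median of the pancreas list ranged from -0.38 to 0.35 over the S1 arrays and from 1.30 to 1.94 over those of S5. The part of these tissues in the calls of members was not tested.

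From the mid-intestine to S5, 2 members rose (1.45%, against 1.64% of all probes) and 2 fell (1.45%, against 1.44%). Bub3 (probe 5456543) had -3.73, -4.93, -3.46, -4.03 and -2.29 in S3 and -3.66, -1.42, -3.83, -3.34 and -3.52 in S4, against -2.37, -1.23, -0.56 and -2.27 in S5. It rose by 1.81 (standard error 0.48, adjusted p = 0.0365, limma), or 3.51-fold, with S3 replicate 5 and S4 replicate 2 inside the S5 range. The other tested probe of bub3 (5455742) was not called in this step. Its segment means lay within 0.33 of each other (adjusted p = 0.73, F test in limma). Top2a (probe 5468213) had -5.33, -5.83, -5.59, -5.82 and -5.65 in S3, -5.29, -4.16, -6.14, -6.21 and -5.49 in S4, and -5.36, -4.68, -1.56 and -3.97 in S5. It rose by 1.66 (standard error 0.46, adjusted p = 0.0483), or 3.16-fold, and the groups overlapped. Cdc42bpb (probe 5468936), at 0.36 to 1.83 in the mid-intestine and 0.21 to 0.63 in S5, fell by 0.57. Rpap3, a chaperone partner gene, at 0.14 to 1.15 and -0.54 to 0.15, fell by 0.50, and both overlapped between the groups. The probe of rpap3 was above background in either dye on 16 of 24 arrays.

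The rise of top2a leaned on S5 replicate 3, and that of bub3 changed less in size without this array but was no longer called. Without that array top2a differed by 0.88 (adjusted p = 0.237, limma) and bub3 by 1.46 (adjusted p = 0.163), and rpap3 by -0.37 (adjusted p = 0.206). With the pixel class as a block top2a differed by 1.63 (adjusted p = 0.0615) and rpap3 by -0.48 (adjusted p = 0.05003), neither of them called. With the replicate number as a block neither bub3 nor top2a was called. Over the 24 fits that left out 1 array, the call was lost in 19 for top2a, 19 for rpap3, 8 for bub3 and 8 for cdc42bpb. On S5 replicate 3 the probes of kifbp, top2a, smc2, ccnb1l, ccnb1 and bub3 were above the mean of the other S5 arrays by 3.29, 3.11, 2.00, 1.73, 1.52 and 1.4, while the median over the 138 members was 0.15. The same array had a median of -0.62 over 26 skeletal muscle genes, a list written after its values were seen, against -4.95 to -2.99 on the other 23 arrays, and 15 of the 26 were highest there. It also stood apart from the other 23 arrays in the medians of the enterocyte list (0.65, others 1.45 to 3.06) and of enteric neurons and glia (0.38, others -0.75 to -0.067). Its median over the 4 tested enteroendocrine genes was the highest but close to the next (0.78, others -0.25 to 0.74). The part of muscle RNA or of these other cell types in the values of this array was not tested.

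Between S1 and S2 no member passed the threshold in limma, against 0.0878% of all probes higher and 0.728% lower. At an unadjusted p under 0.05 there were 17 members (12.3%, against 10.2% of all). The array S1 replicate 4 had the highest values of its segment for ccnb1 (-2.21), plk1 (-2.15), cdc20 (-2.22) and bub3 (probe 5456543, -2.25). Its median over the oocyte list (-1.57) was also the highest, against -3.90 to -3.44 on the other S1 arrays, and the part of this in its values was not tested.

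On the arrays of S6 and S7 the cell cycle genes lay near the typical probe. Some other lists did as well. Their medians per array lay between -0.50 and -0.051 for enterocyte genes and between -0.68 and 0.22 for oocyte genes. For skeletal muscle genes they lay between -0.72 and -0.024, and the enterocyte median was below 0 on all 6 arrays. The exocrine pancreas list did not, with medians from 0.65 to 1.84 on the S6 arrays and from 1.33 to 2.67 on those of S7. Of 143 members tested over all 30 arrays, 87 were higher in S6 than in S1 to S5 (60.8%, against 26.4% of all probes) and 14 lower (9.79%, against 25.4%). In S7, 86 were higher (60.1%, against 27.1%) and 12 lower (8.39%, against 25.9%). The median difference over the 112 cell cycle probes was 1.03 in S6 and 1.01 in S7. The dyes were split after Aquantile normalization, which sets all arrays to a common distribution of brightness. For these probes the median segment signal in Cy5 then differed by -0.015 in S6 and -0.18 in S7. The median reference signal in Cy3 differed by -0.995 and -1.38. Over all probes the median of either dye moved by at most 0.11, but this normalization and loess hold it near 0 by design. For ccnb1 the ratio was 5.15 higher in S7, with a change of -0.40 in Cy5 and of -5.55 in Cy3 on the log2 scale. For pcna it was 0.96 higher in S7, with changes of -1.48 and -2.45. In the median, then, and relative to the typical probe of an array, the higher ratios of S6 and S7 came with lower reference signals, not with higher segment signals. On these 6 arrays 14.9% (S7 replicate 4) to 89.9% (S6 replicate 2) of spots were above background in Cy5. The part of weak Cy5 signals in the small median change of Cy5 was not tested. Segment and array type cannot be told apart here.

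**Figure D5:**
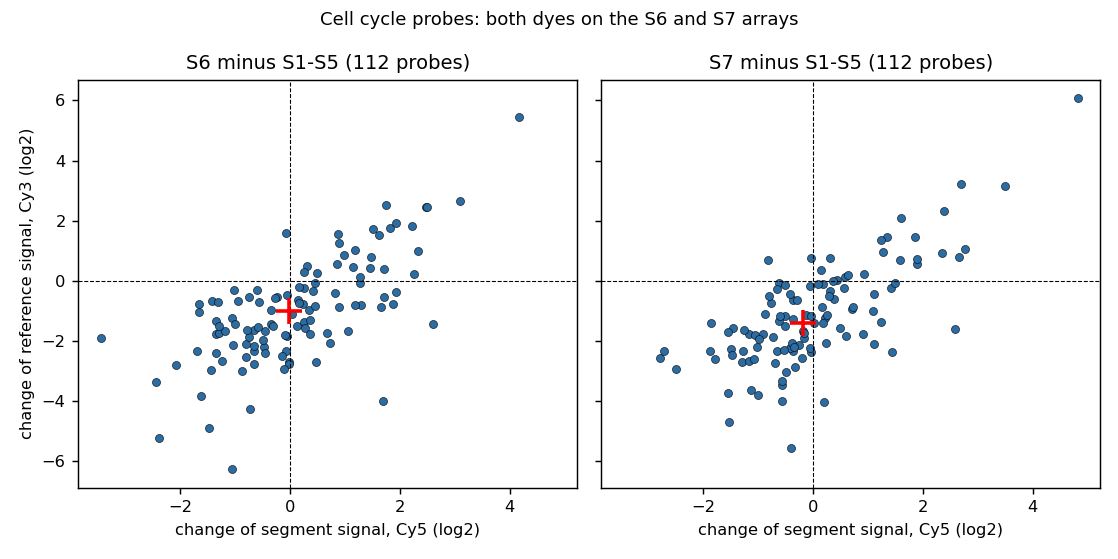
Change in segment signal (Cy5) and in reference signal (Cy3) of each cell cycle probe in S6 and in S7 against the mean of S1 to S5. Values are on the log2 scale after Aquantile normalization between arrays. The median change in Cy5 is -0.015 in S6 and -0.18 in S7, and the median change in Cy3 is -0.995 and -1.38.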

How the data were processed

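Each of 30 arrays compared RNA of an intestinal segment (Cy5) with whole-fish RNA (Cy3). The intensity values of spots and local background were deposited by the authors as scanned, without normalization. The deposited log2 values are the authors' binary logarithm of the ratio of Cy5 to Cy3 times a constant per array, although the methods name LOWESS normalization, and rounded copies of them form the series-wide table. No columns of other samples were left over (0).

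Starting from the intensities, normexp (limma 3.58.1, R 4.3.3, offset 50) removed the background. Log2 ratios were normalized within arrays by loess, in which 245 spots counted as controls had weight 0, and these were left out. Spots were counted as controls when 10 or more shared the same sequence entry. A probe was tested when its median exceeded the background median by over 2 background SD on 3 or more arrays of a segment, for either dye, with at least 2 values in every segment. Linear models with moderated statistics were fitted to all tested probes and p-values adjusted by Benjamini-Hochberg over all of them, at 0.05. Calls against the whole fish, tested as the mean of the 5 segment means against 0, also needed 2-fold. The contrasts were the F test over S1 to S5, the trend per segment, mid-intestine (S3, S4) against bulb (S1, S2), S5 against mid-intestine, S2 against S1, and S6 and S7 each against S1 to S5, the latter in a fit of all 30 arrays. Tables were read with data.table (version 1.17.8). Of the member spots, 45 symbols were current, 101 were updated through a synonym and 1 was kept. In simulated data on S5 against mid-intestine (19362 probes), 86% of 2-fold and 97% of 4-fold changes were recovered, with 7 false calls. The simulated noise was independent between probes and arrays. Outlying arrays and unmeasured spots, which the real data hold, were therefore not covered.

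Genes named are a core set (pcna, mcm, orc, cdc6, cdc20, cdc25, cdc45, rfc, rpa, chaf1a, cyclins A, B and E, plk1, aurora and bub genes, top2a, condensin, cohesin, ndc80, nuf2, gtse1, mitotic kinesins and centromere genes), up to 10 members per direction with the largest change in each segment contrast, the 10 highest and lowest against the whole fish, and up to 4 genes per outside list. Some further members are named after their values were seen. A gene with several probes was represented by the brightest. The members and lists were chosen with earlier results of these data known. Besides the lists described, markers of 8 other cell types were fitted. Against the whole fish, of tested genes 1 of 1 goblet, 1 of 4 enteroendocrine, 3 of 7 smooth muscle, 2 of 12 exocrine pancreas and 1 of 11 immune genes were higher, and 3 of 9 enteric neuron, 5 of 7 blood, 2 of 11 immune and 5 of 12 liver genes were lower. Of the added skeletal muscle list 19 of 26 were lower and 1 higher.

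Alternatives were no background correction, an offset of 16, median centring, scale and Aquantile normalization, the authors' table, no dim filter, a replicate block, leaving out each array, all 30 arrays in the fit and a Bonferroni threshold of 0.1 as in the methods. Added after seeing the data were the pixel class of the arrays as a block, only arrays of either class, and unmeasured spots as missing. Promoter and oligo sequences were not used here.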

Additional observations from a re-analysis of the deposited data

Results flagged for a closer look

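In 15 of 135 groups of 4 or 5 arrays of named members, an array lay far from the rest of its segment by Dixon's criterion, which chance gives in about 1 in 20 groups. S1 replicate 4 was higher than the other S1 arrays for cdc20 (-2.22, others -3.33 to -3.07) and plk1 (-2.15, others -3.63 to -3.29), and lower for bub3 probe 5455742 (-0.95, others -0.77 to -0.71). S4 replicate 5 was apart for mcm6 probe 5464577 (0.88, others 1.67 to 1.96), kif2a probe 5453365 (-1.45, others -0.66 to -0.51), kifbp probe 5464013 (-2.70, others -3.65 to -3.44) and ccnb2 (0.044, others -5.32 to -4.12), the last with neither dye above background. S2 replicate 5 was apart for ccnb2 (-5.68), where the other S2 arrays were not measured, and for mcm2 probe 5448113 (-2.04, others -1.30 to -1.08). The remaining arrays were S2 replicate 2 for top2a probe 5452314 (0.26), S3 replicate 3 for mcm6 probe 5464577 (1.41), S4 replicate 4 for ccnb1 (-6.96), S1 replicate 5 for ndc80 probe 5447537 (-2.11), S5 replicate 1 for ndc80 probe 5458044 (0.29) and S4 replicate 2 for bub3 probe 5456543 (-1.42).

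Levels differed between segments by the F test (limma) for 5 members, with distances between the highest and lowest segment mean of 0.94 for kifap3b probe 5447828 (measured on 18 of 24 arrays), 0.86 and 0.81 for the probes 5468936 and 5464364 of cdc42bpb, 0.67 for cdc37l1 and 0.41 for ndc80 probe 5458044.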

How the results depend on the processing

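Against the whole fish, 62 lower and 3 higher member probes became 58 to 64 and 3 when any array was left out, and over all alternatives the median of members stayed between -1.24 and -0.71. The authors' table moved the median of all probes to -0.13, so changes under it are relative to that. Of 3399 alternative values of named probes against the whole fish, 3330 kept direction and side of the threshold and 3 changed sign, ccne2 under median centring (0.00098) and the authors' table (0.12) and ndc80 probe 5458044 on arrays of many pixels (0.0051). Of 575 alternative values of the 16 segment calls, 343 kept direction and side of the threshold, 231 lost the call, and rpap2 changed sign in the trend under the authors' table (0.14).

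For S5 against mid-intestine, the 2 higher probes became 1 under the authors' table, no dim filter, all 30 arrays, the pixel block and arrays of many pixels, and 0 under scale normalization, and the 2 lower became 1 without background correction and under scale normalization, 0 under median centring, the authors' table and all 30 arrays, and 4 on arrays of many pixels and with unmeasured spots missing. For the trend, the 3 higher became 1 under median centring and 0 with all 30 arrays, the pixel block and many pixels. The 6 lower became 2 under median centring, the authors' table and all 30 arrays, and 3 under scale normalization, the pixel block and many pixels. For mid-intestine against bulb, the 3 higher became 0 under median centring, all 30 arrays and many pixels and 1 under the authors' table and the pixel block, and 1 was lower without background correction. The 5 of the F test became 9 without background correction, 0 with all 30 arrays or the Bonferroni threshold, and 2 on many pixels. For S2 against S1, 1 was higher without background correction and under median centring and 1 lower under the authors' table. In S7 the 12 lower became 7 under median centring, and in S6 the 87 higher became 57 with unmeasured spots missing, where fewer probes could be tested. The cause of the other shifts was not tested. Aquantile normalization left the ratios as they were.

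Leaving out 1 array gave 3 to 10 for the F test (10 without S2 replicate 5, 3 without S1 replicate 2), 0 to 7 higher (7 without S5 replicate 1, 0 without S1 replicate 2) and 3 to 8 lower for the trend, 1 to 3 higher and 0 to 1 lower for mid-intestine against bulb, 0 to 3 higher and 0 to 4 lower for S5 against mid-intestine, 0 to 2 higher and 0 to 0 lower for S2 against S1, 82 to 88 higher and 11 to 17 lower in S6, and 77 to 90 higher and 9 to 15 lower in S7.

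Arrays with the same replicate number deviated together only weakly in the mean (r 0.056, against -0.015 for arrays of other numbers). Single pairs ranged from -0.63 to 0.53, and 16 of 46 were over 0.1. The labels do not say that a number marks shared fish, so the numbers were not taken as pairing the samples. Whether pools of different segments share fish stays unknown. With the replicate block, the higher probes of S5 against mid-intestine became 0 (bub3 1.86, adjusted p = 0.0660, and top2a 1.66, adjusted p = 0.0935, limma), those of the trend became 1 higher and 3 lower, and 61 were lower against the whole fish. For 9 of 24 arrays the best correlated array of another segment had the same number. How many chance would give was not worked out, so this count does not show pairing.

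The main limits are the missing dye swap, a reference that holds gonads, weak Cy5 signals of mitotic genes, and probes of the same gene that disagree.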

Other observations

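Ccnd1, the cyclin D of early G1, had 15 spots on the array under the same sequence entry. Ccnd1 was left out of the fit in that form, since spots repeated this often were counted as controls. The median over its copies was above 0 on all 24 arrays of S1 to S5, from 0.23 to 2.61 with a median of 0.93, and copies of the same array differed by an SD of 0.31 to 1.91.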
